A study of Mus musculus with 5 samples.

Results

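The rod phototransduction cascade was followed through 9 genes, each found by its symbol as a single row of the count table, out of 33635 gene identifiers in all. The members were Gnat1, Gnb1 and Gngt1 for the 3 subunits of transducin, Pde6a, Pde6b and Pde6g for the phosphodiesterase, Cnga1 and Cngb1 for the cation channel, and Sag for rod arrestin. All 9 passed the filter on low counts and entered the test.

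Rods are the photoreceptors of dim light and the most numerous neurons of the mouse retina. Absorbed light activates the G protein transducin, whose alpha subunit releases the inhibitory gamma subunits from the phosphodiesterase catalytic pair. Cyclic GMP is then broken down, the cyclic nucleotide-gated channel of the outer segment closes and the rod hyperpolarizes, while arrestin ends the signal at its source. A diffuser goggle blurs the image and somewhat dims it, and the photoreceptors are the first cells to receive that altered input.

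Retinas came from wild-type male C57BL6/J mice, in which a diffuser goggle was fixed to the head over the right eye at P28 (form-deprivation myopia, FDM) and worn for 2 weeks, until tissue was taken at P42. The uncovered left eye of the same animals was the control, so every control retina came from an animal that also wore a goggle. The labels gave refractive errors of 0.976 and 0.2745 D for the FDM eyes and of 2.4455, 3.1505 and 2.465 D for the control eyes at P42. The 5 polyA RNA libraries, 2 FDM and 3 Control, held 40599047 to 56534931 estimated counts. FDM 1 and Control 1 were the eyes of one mouse and FDM 3 and Control 3 those of another, a pairing that comes from the study's supplement and the column names of the table, since the sample labels number the second FDM library 2. Control 2 had no partner here. Levels below are CPM, the count of a gene relative to its TMM-scaled library size, and differences are log2 values.

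The rod markers Nrl, Nr2e3, Gnat1 and Sag were detected in every library. RNA of neighbouring tissue was uneven. The 8 lens markers summed to 2056.2 CPM in FDM 3 against 2.36 to 19.2 CPM in the other 4 libraries, and the 7 markers of the retinal pigment epithelium (RPE) to 58.8 to 76.7 CPM in FDM 1, FDM 3 and Control 1 against 265 and 224 CPM in Control 2 and Control 3. The 5 muscle markers summed to 49.9 CPM in Control 3 against 6.18 to 7.76 CPM in the other 4 libraries. FDM 3 and Control 3, eyes of one mouse, thus differed in lens, RPE and muscle markers. The part of this in the differences between these eyes was not tested. In a bulk retina, fewer rods and less RNA per rod cannot be told apart.

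Promoters of members are printed here to set rod genes beside Gnb1. RefSeq promoters on GRCm38.p6 were at hand for 6 of the 9 members, and the 250 bases before each start were searched on both strands for TAATCC, a core read by the photoreceptor homeobox factor CRX, for GATTA, a shorter homeobox core whose reverse complement overlaps TAATCC, and for TGCTGA, part of the site of the rod factor NRL. TAATCC was in 4 of the 6 (Gngt1, Cnga1, Cngb1 and Sag), against 6.25% of all 32851 promoters searched. GATTA was in 5 of the 6, all but Gnb1, against 19.8%, and TGCTGA in 2, Pde6b and Sag, against 16.1%. The reverse complement of GATTA lies wholly within TAATCC. The 4 promoters with TAATCC therefore hold GATTA by necessity, and these counts are not separate. The last 150 bases before the start are shown 5′ to 3′ for the 4 rod genes with a match in that stretch and for Gnb1, whose beta subunit many other cells use, with every motif match in capitals. The GATTA and TGCTGA matches of Sag farther from its start lie outside the stretch shown.
Gngt1 (chr6:3993858-3994007, plus strand): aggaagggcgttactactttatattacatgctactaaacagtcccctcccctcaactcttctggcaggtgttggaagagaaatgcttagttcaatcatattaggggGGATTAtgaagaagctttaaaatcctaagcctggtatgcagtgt
Cngb1 (chr8:95306586-95306735, minus strand): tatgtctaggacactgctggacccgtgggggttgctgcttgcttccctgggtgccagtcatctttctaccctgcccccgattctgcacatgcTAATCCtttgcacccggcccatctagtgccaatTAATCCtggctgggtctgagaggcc
Pde6b (chr5:108388223-108388372, plus strand): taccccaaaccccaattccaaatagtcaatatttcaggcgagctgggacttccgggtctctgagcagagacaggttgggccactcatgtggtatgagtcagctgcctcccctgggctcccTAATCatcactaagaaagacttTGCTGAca
Sag (chr1:87803530-87803679, plus strand): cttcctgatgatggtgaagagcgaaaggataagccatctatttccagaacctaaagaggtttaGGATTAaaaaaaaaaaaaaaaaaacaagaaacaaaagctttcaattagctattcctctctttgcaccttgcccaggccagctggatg
Gnb1 (chr4:155491211-155491360, plus strand): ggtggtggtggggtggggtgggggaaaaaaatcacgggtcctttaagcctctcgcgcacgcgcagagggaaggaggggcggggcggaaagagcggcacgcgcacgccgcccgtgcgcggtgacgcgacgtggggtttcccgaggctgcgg
Gnb1 held none of the 3 motifs in the 250 bases searched. A match describes the letters only and is not a measured binding site.

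Per kilobase of annotated transcript, the members spanned a wide range of levels. Scaled to the length of the principal transcript in GENCODE M21, Gnat1 stood first at 5274.1 ± 623 CPM per kb (SD over the 5 libraries), followed by Sag at 2763.9 ± 184, Pde6g at 2036.3 ± 155 and Gnb1 at 1580.2 ± 110. Pde6b came next at 919 ± 52.3 CPM per kb and Gngt1 at 849 ± 38.5, and these neighbours overlapped. Pde6a followed at 579 ± 34.1, Cnga1 at 301 ± 12.5 and Cngb1 at 169 ± 17.3 CPM per kb. Every other pair of neighbours in this order had ranges that did not overlap over the 5 libraries. Within the transducin trio the alpha subunit transcript was therefore the most abundant per length and the gamma subunit the least, and within the channel the alpha subunit exceeded the beta subunit. The order leaned on the length used. With the union of all annotated exons, Sag (8904 bases in place of 1719) dropped to 534 CPM per kb and stood between Pde6a and Pde6b, both of which it overlapped, and Cnga1 and Cngb1 overlapped as well.

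**Figure D1:**
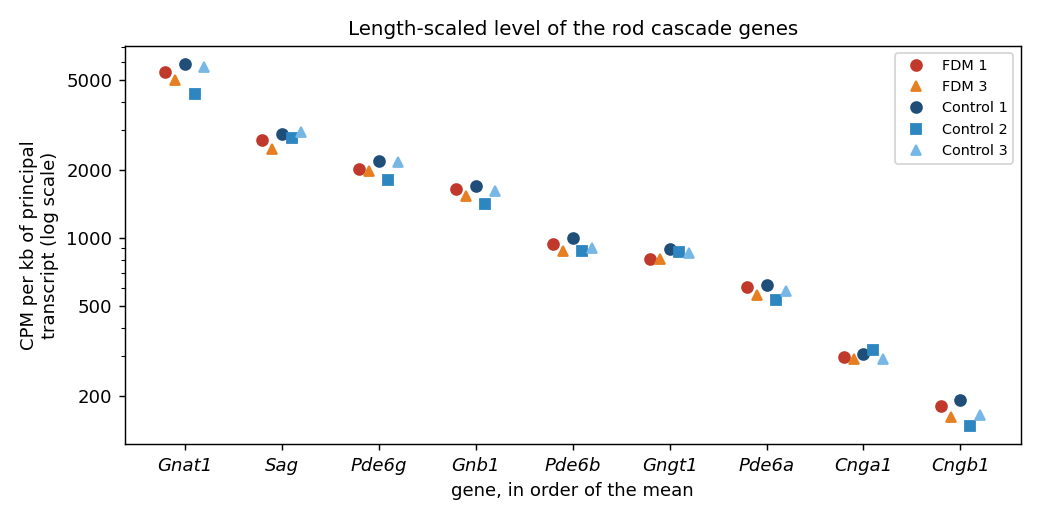
CPM per kb of principal transcript (log axis) for each rod cascade gene in each of the 5 libraries, genes ordered by their mean. Points are single libraries, FDM in red and orange and Control in blues, with the marker shape giving the mouse; Gnat1 lies at the top near 5274.1 CPM per kb and Cngb1 at the bottom near 169, while the libraries of one gene lie close together.

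Gnat1 (ENSMUSG00000034837, chromosome 9 of GRCm38, 107674474 to 107679712) encodes the transducin alpha subunit, which binds GTP and carries the light signal to the phosphodiesterase. FDM 1 held 12698 CPM and FDM 3 held 11632, while the control retinas held 13723 (Control 1), 10089 (Control 2) and 13249 (Control 3). Control 2 was the lowest and Control 1 the highest, so both FDM libraries lay inside the range of the controls. Between FDM and control eyes edgeR gave a log2 difference of -0.02 ± 0.14 (SE; 95% interval -0.36 to 0.32), with unadjusted p = 0.882 and adjusted p = 1.0. The controls alone spread over 0.44 on the log2 scale, the widest span of the 9 members.

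Gnb1 (ENSMUSG00000029064, chromosome 4, 155491361 to 155559269) encodes the beta subunit of transducin in rods, which serves other G proteins elsewhere. Its levels were 5176 and 4819 CPM in FDM 1 and FDM 3, and 5328, 4445 and 5065 CPM in Control 1, 2 and 3. The groups overlapped, and edgeR put the log2 difference at 0.01 ± 0.11 (SE; unadjusted p = 0.892). Gngt1 (ENSMUSG00000029663, chromosome 6, 3993792 to 3997436) encodes the farnesylated rod gamma subunit. It was at 956 CPM in FDM 1 and 959 in FDM 3, and at 1061, 1027 and 1016 CPM in Control 1, 2 and 3. Both FDM libraries were below all 3 controls, an arrangement found for 6.67% of the 17432 genes tested. In edgeR the log2 difference was -0.11 ± 0.08 (SE; 95% interval -0.30 to 0.07), with unadjusted p = 0.200 and adjusted p = 1.0, so it did not pass the test.

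The catalytic core of the rod phosphodiesterase is a pair of similar subunits, alpha and beta, each with a cyclic GMP site. Pde6a (ENSMUSG00000024575, chromosome 18, 61220315 to 61289924) had 2775 CPM in FDM 1 and 2570 in FDM 3 beside 2836, 2446 and 2660 CPM in Control 1, 2 and 3. Pde6b (ENSMUSG00000029491, chromosome 5, 108388391 to 108432397) was at 2635, 2458, 2796, 2443 and 2530 CPM in the same order. The alpha and beta transcripts moved almost in step from library to library, both highest in Control 1 and lowest in Control 2. Their log2 fold changes were 0.01 (standard error 0.10, unadjusted p = 0.894) and -0.02 (standard error 0.10, unadjusted p = 0.808 from edgeR). Pde6g (ENSMUSG00000025386, chromosome 11, 120447605 to 120453500), the small inhibitory subunit that transducin pulls away, was at 1813, 1789, 1979, 1633 and 1950 CPM, and edgeR put its log2 difference at -0.04 ± 0.11 (SE; unadjusted p = 0.711). For Pde6g too, Control 2 was lowest, and the FDM libraries lay between it and the other controls.

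The channel subunits differed in which library was extreme. Cnga1 (ENSMUSG00000067220, chromosome 5, 72603696 to 72644275), the pore-forming alpha subunit, had 812 CPM in FDM 1 and 798 in FDM 3 beside 844, 874 and 794 CPM in Control 1, 2 and 3. Cngb1 (ENSMUSG00000031789, chromosome 8, 95239045 to 95306585) encodes the modulatory beta subunit and, from the same locus, the soluble glutamic acid-rich proteins of the outer segment, which these gene-level counts do not separate. Its levels ran 1122, 1001, 1179, 907 and 1012 CPM in the same order. Control 2 was thus the highest library for Cnga1 and the lowest for Cngb1. The log2 fold changes were -0.06 (standard error 0.08, unadjusted p = 0.526) for Cnga1 and 0.04 (standard error 0.13, unadjusted p = 0.760 from edgeR) for Cngb1.

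Sag (ENSMUSG00000056055, chromosome 1, 87803680 to 87845158), the arrestin that ends the light signal in rods, had the largest difference of the 9. Arrestin RNA reached 4689 CPM in FDM 1 and 4255 in FDM 3, beside 4975, 4770 and 5067 CPM in Control 1, 2 and 3. As for Gngt1, both FDM libraries lay below every control. The gap between FDM 1 and Control 2 was small beside the distance between the FDM libraries themselves. In edgeR the log2 difference was -0.14 ± 0.09 (SE; 95% interval -0.35 to 0.07), with unadjusted p = 0.157 and adjusted p = 1.0. FDM 3, the lowest library for Sag, was also the one with the high lens markers. Their part in its level was not tested. Leaving lens, RPE and muscle markers out of the table left the log2 fold change at -0.14. That step drops only the marker rows before scaling, so it cannot test this.

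**Figure D2:**
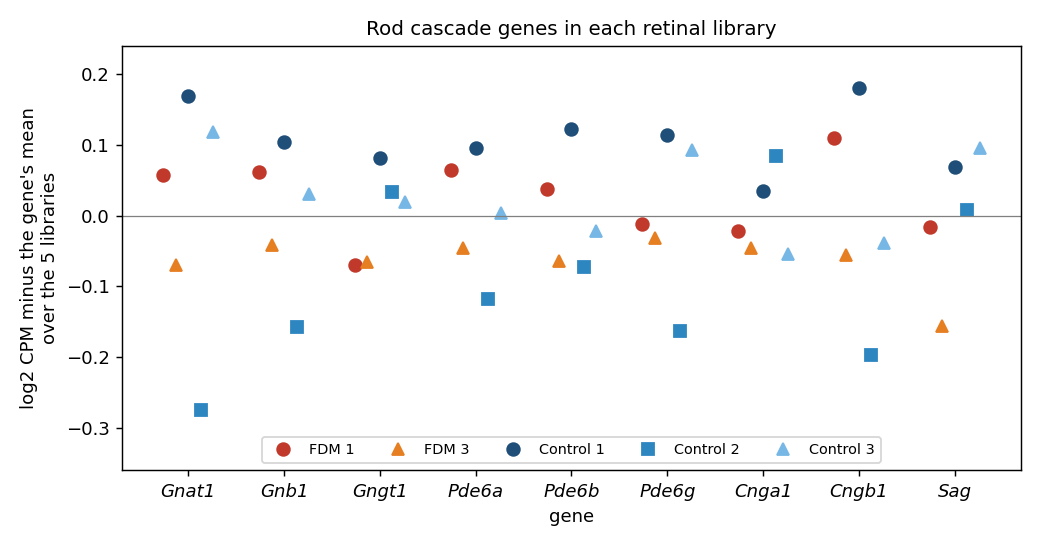
Log2 CPM of each rod cascade gene in each library, minus that gene's mean over the 5 libraries; points are single libraries, FDM in red and orange and Control in blues, with marker shape for mouse. Control 2 lies lowest for 6 of the 9 genes, down to -0.275 for Gnat1, and for Gngt1 and Sag both FDM points lie below the 3 control points.

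Without pairing the eyes, no member passed the test between FDM and control retinas, although both FDM libraries lay below the 3 controls for Gngt1 and Sag. None of the 9 members (0) had an unadjusted p under 0.05 in edgeR's quasi-likelihood test, the threshold the study used, where 281 of the 17432 genes tested did, or 1.61%. DESeq2 also called 0 of the 9. In edgeR 6 members had a log2 fold change below 0 and 3 above, with a median of -0.02 against -0.01 over all genes. The 95% intervals reached from 0.779-fold to 1.245-fold for Gnat1 and from 0.813-fold to 1.053-fold for Gngt1, and for Cngb1 up to 1.263-fold, so that changes within these bounds could not be told from none with 2 against 3 libraries.

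Comparing the eyes within each animal gave a different picture. In mouse 1 all 9 members were lower in the goggled eye, with differences from -2.17% for Pde6a to -9.95% for Gngt1, and in mouse 3 this held for 8 of the 9, from -1.06% for Cngb1 to -16.0% for Sag. The exception was Cnga1, 0.590% higher in the FDM eye of mouse 3. The difference was -7.47% and -12.2% for Gnat1 in mouse 1 and mouse 3, and -8.39% and -8.24% for Pde6g. For Sag it was -5.74% in mouse 1. So 8 of the 9 members were lower in both mice, where 30.2% of all genes tested were. The members share their libraries and one scaling, and do not count as 9 separate observations. That share is a plain count, not a test. Scaled by library totals alone, or taken from the authors' normalized counts, 7 of the 9 were lower in both mice. Of the genes present in all 4 paired libraries, 24.3% and 27.2% were lower in both on these scales. Among those with a mean of at least 50 CPM the shares were 27.2% and 29.7%, and 34.6% with TMM. On the library totals Cngb1 joined Cnga1 as higher in mouse 3, by 0.202%, and on the normalized counts Gnb1 was 2.37% higher in mouse 1. On that scale the difference of Gngt1 in mouse 1 was -4.49%, and the lowest there was that of Pde6g, at -7.91%. The median difference over the members was -0.09 in mouse 1 and -0.07 in mouse 3 on the log2 scale, against -0.02 and -0.001 over the genes present in all 4 paired libraries.

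**Figure D3:**
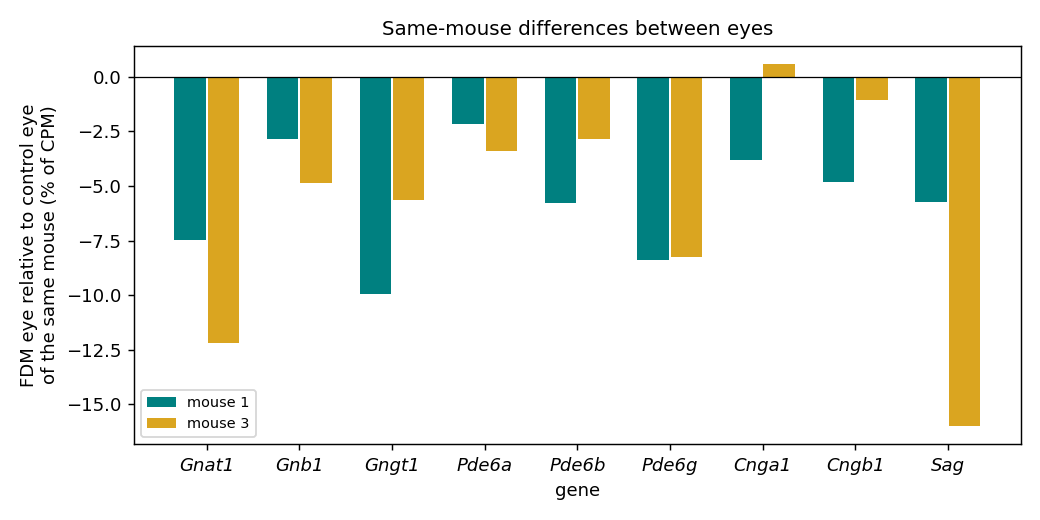
Difference in CPM between the FDM eye and the control eye of the same mouse, as a percentage of the control eye, for each rod cascade gene; bars are single pairs of libraries, so they carry no error. All bars lie below 0 but that of Cnga1 in mouse 3, and the longest is Sag in mouse 3, at -16.0%.

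With the mouse as a block in edgeR, 4 of the 9 members had an unadjusted p under 0.05, all lower in FDM eyes, against 7.23% of all genes in either direction and 3.67% of all genes in the lower direction. They were Sag (log2 fold change -0.17, standard error 0.06, unadjusted p = 0.0203), Gnat1 (-0.15, 0.06, 0.0247), Pde6g (-0.13, 0.05, 0.0382) and Gngt1 (-0.12, 0.05, 0.0497). After Benjamini-Hochberg adjustment over all genes none of the 9 (0) passed, with adjusted p from 0.619 for Sag to 0.689 for Gngt1 among these 4. Gnb1, Pde6a, Pde6b, Cnga1 and Cngb1 had block log2 fold changes from -0.06 to -0.02 and intervals that included 0. The block fit rests on 2 pairs and 1 residual degree of freedom per gene, to which edgeR's test adds degrees of freedom estimated over all genes. Its p-values therefore lean on variance shared between genes. DESeq2 with the same block also called 4 members, among 273 calls over all 17432 genes. Under the other pairing, by the numbers in the sample labels (FDM 3 with Control 2), edgeR called 0 members, and the log2 differences of Gnat1 (0.05) and Pde6g (0.0028) were above 0, so these calls rest on the pairing taken from the study's supplement. With the authors' factors as offsets the block fit called 3, without Gngt1, which stood at the edge of the threshold. Over all 17432 genes it called 1273, with 552 of them lower.

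**Figure D4:**
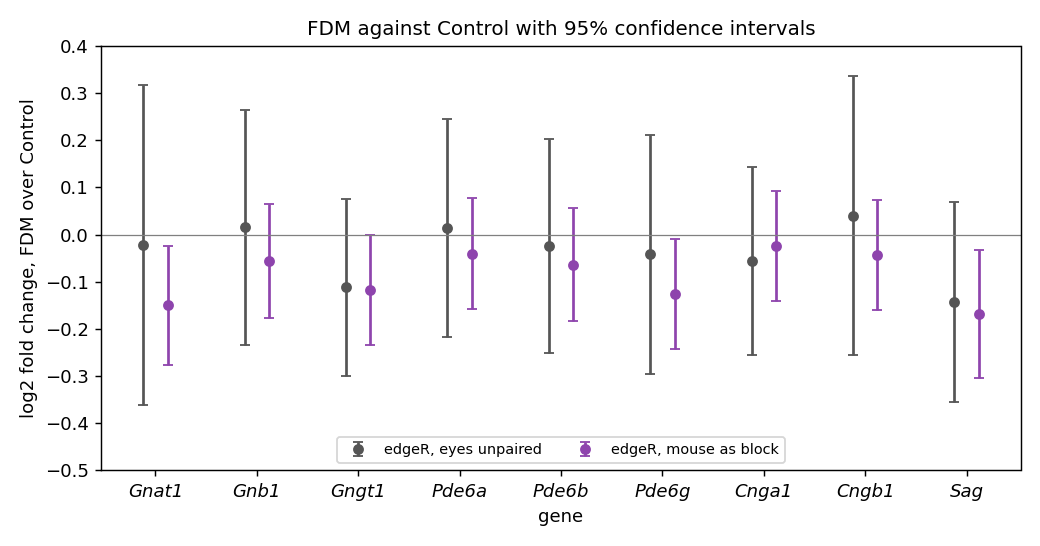
Log2 fold change of FDM over Control for each rod cascade gene in edgeR, with the eyes unpaired (grey) and with the mouse as block (purple); points are estimates and bars 95% confidence intervals. Every unpaired interval includes 0, and the block intervals of Gnat1, Gngt1, Pde6g and Sag end below 0, that of Gngt1 at -0.0002.

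Ratios between partner genes within one library need no scaling between libraries and follow whether the parts of the cascade kept their proportions. They are ratios of counts, not corrected for length, so only their change between libraries can be read. The ratio of Pde6a to Pde6b counts was the steadiest, at 1.053 and 1.046 in FDM 1 and FDM 3 and at 1.014, 1.001 and 1.052 in Control 1, 2 and 3. The ratio of Gnat1 to Gnb1 was 2.45 and 2.41 in FDM 1 and FDM 3, and 2.58, 2.27 and 2.62 in the 3 controls. The ratio of Cnga1 to Cngb1 was 0.724 and 0.797 in the FDM libraries, 0.716 and 0.784 in Control 1 and Control 3, and 0.964 in Control 2. Sag over Gnat1 was 0.369 and 0.366 in the FDM libraries against 0.363, 0.473 and 0.382 in the controls, with Control 2 again apart. The other ratios were those of Gnat1 to Gngt1 and of Pde6g to Pde6b. For all 6 ratios the difference between the groups lay between -0.13 and 0.10 on the log2 scale. The lowest p was 0.300, for Pde6a over Pde6b (exact permutation test, two-sided, p = 1.0 after adjustment over the 6 ratios). With 2 against 3 libraries this test cannot give a p below 0.1. Between the eyes of mouse 1 and of mouse 3, the log2 ratio differed by -0.070 and -0.116 for Gnat1 over Gnb1, by -0.041 and -0.082 for Pde6g over Pde6b and by 0.015 and 0.024 for Cnga1 over Cngb1. The other 3 ratios differed in opposite directions in the mice. These paired differences were not tested.

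The rest of the rod pathway was read from 19 further genes, among them those for shutoff, calcium feedback, the discs and the rod transcription factors. In the unpaired fit 0 of the 19 had an unadjusted p under 0.05 in edgeR or DESeq2, and their median log2 fold change was -0.02. Rcvrn, a calcium sensor of photoreceptors, was at 882 and 848 CPM in the FDM libraries and at 969, 717 and 920 CPM in the controls. Its lowest level was in Control 2, as for Gnat1.

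Within the mice, 11 of these 19 genes were lower in both FDM eyes and 4 were higher in both, where 30.4% and 24.7% of the genes present in all 4 paired libraries were. The block fit called 6 of them at the unadjusted threshold in edgeR, against 7.23% of all genes in either direction and 3.67% as lower. After adjustment over all genes 0 of the 19 passed, where 54 of the 17432 genes tested did. The 3 lower genes were Rcvrn (block log2 fold change -0.13), Rom1 (-0.12), a tetraspanin of the disc rim, and Rdh12 (-0.12), a retinol dehydrogenase of photoreceptors. The 3 higher genes were Gucy2f (0.38), one of the guanylate cyclases, Rgs9 (0.31) and Rgs9bp (0.20), where 3.57% of all genes were called as higher. Rgs9 and its membrane anchor Rgs9bp form, with Gnb5, the complex that speeds GTP hydrolysis on transducin and so ends the response. Rgs9 was 34.5% higher in the FDM eye of mouse 1 and 14.1% higher in that of mouse 3, and Rgs9bp 15.7% and 13.3% higher, opposite in direction to Gnat1. Gucy2f was 59.4% higher in mouse 1 and 7.06% higher in mouse 3, its unpaired log2 fold change was -0.08, and DESeq2 with the block did not call it. Gnb5, the other partner, named here after its values were seen, differed by -4.11% and -4.57%. In CPM, Rgs9 stood at 438 and 355 in FDM 1 and FDM 3 and at 326, 467 and 311 in Control 1, 2 and 3, so that unpaired Control 2 exceeded both FDM libraries (log2 fold change 0.11, unadjusted p = 0.582 from edgeR without the block). Without Control 2 in the unpaired fit, Rgs9, Rgs9bp and Gucy2f passed the unadjusted threshold in edgeR as higher, and 0 of the 19 as lower. Over all genes that fit called 535, with 347 higher and 188 lower, against 79 higher and 202 lower with all 5 libraries. The adjusted p from edgeR was 0.998 for each of these 3 genes.

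Cones run the same steps with their own isoforms, and 10 cone counterparts were set beside the rod genes. In the unpaired edgeR fit 0 of the 10 passed, with a median log2 fold change of 0.03. Pde6c, the cone phosphodiesterase, came nearest, at 119 and 111 CPM in FDM 1 and FDM 3 and 102, 103 and 104 CPM in the controls, above all controls in both FDM libraries (log2 fold change 0.16, standard error 0.08, unadjusted p = 0.0756 from edgeR). DESeq2 called Pde6c (unadjusted p = 0.0495), where it called 172 of all 17432 genes. The block fit called Pde6c too (unadjusted p = 0.0235 from edgeR), and Gngt2, the cone gamma subunit, as lower (-0.15). That fit called 7.23% of all genes in either direction. After adjustment over all genes 0 of the 10 passed in either fit. In the edgeR block fit the adjusted p was 0.627 for Pde6c and 0.683 for Gngt2. The cone alpha subunit Gnat2 was at 210 and 195 CPM in FDM and 207, 186 and 206 CPM in control libraries, and the cone channel subunit Cnga3 at 16.1 and 14.9 against 17.6, 14.0 and 16.4 CPM. Arr3, the cone arrestin, was at 362 and 359 CPM in FDM and at 394, 305 and 291 CPM in control libraries. In both mice 3 of the 10 cone genes were lower and 2 higher in the FDM eye, near the shares of 30.4% and 24.7% over the genes present in all 4 paired libraries. Whether the rod genes differed from the cone genes in their response was not tested.

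Control 2, the most deeply sequenced library, was the lowest of the 5 for 6 of the 9 members, and it is set here beside the base composition of the transcripts. Against the mean of the other 4 libraries, Control 2 was lower for Gnat1 by 0.34 on the log2 scale, with 54.0% GC in its principal transcript. For Cngb1 (53.9% GC) the difference was -0.25, for Pde6g (55.8%) -0.20, for Gnb1 (48.1%) -0.20, for Pde6a (49.3%) -0.15 and for Pde6b (49.7%) -0.09. The members with the least GC, Cnga1 at 42.6% and Gngt1 at 35.8%, were higher in Control 2, by 0.11 and 0.04, and Sag, at 52.6%, by 0.01. Among all genes of at least 50 CPM, the fifth with the least GC (945 genes) had a median of 0.25 in Control 2 against the other libraries and the fifth with the most GC a median of -0.19. On the authors' normalized counts these medians were 0.22 and -0.12, and Gnat1 still stood at -0.30. The part of base composition in the levels of the members was not tested. In the fifth from 52.5% to 56.1% GC, with a median of -0.11, Gnat1, Cngb1 and Pde6g lay below the median and Sag above it.

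**Figure D5:**
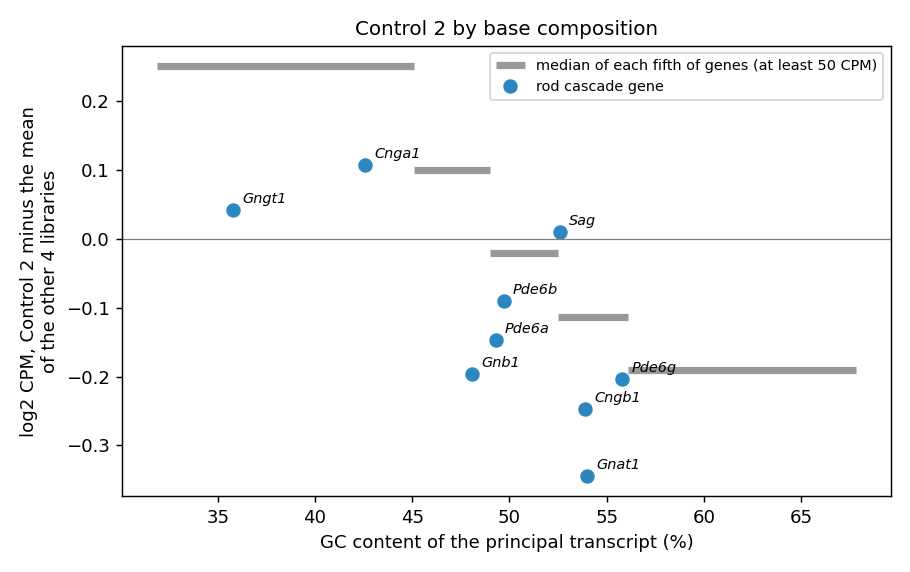
Log2 CPM in Control 2 minus the mean of the other 4 libraries, against the GC content of the principal transcript in percent; blue points are the 9 rod cascade genes and grey lines the medians of 5 equal bins of all genes of at least 50 CPM by GC. The medians run from 0.25 at low GC to -0.19 at high GC, with Cnga1 above 0 and Gnat1 lowest at -0.34.

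Together the 9 members took 3.26% and 3.06% of all counts in FDM 1 and FDM 3 and 3.41%, 2.89% and 3.33% in Control 1, 2 and 3. The mean share of the members was 3.16 ± 0.140% over 2 FDM libraries and 3.21 ± 0.283% over 3 control libraries (mean ± SD). Over the libraries the mean profile of the members, as log2 deviation from each gene's mean, stood at 0.02 and -0.06 in the FDM libraries 1 and 3 and at 0.11, -0.09 and 0.03 in Control 1, 2 and 3. Of the members Pde6a followed this mean profile most closely, at a root mean square distance of 0.0252, and Cnga1 least, at 0.0967. Of the 4718 other genes of at least 50 CPM, those nearest to it were H1f0, a linker histone, at a distance of 0.0065, Ube2z, a ubiquitin-conjugating enzyme, at 0.0097, Sf3b2, a splicing factor, at 0.0134, Gas6, a ligand of TAM receptors, at 0.0143, and Sez6l at 0.0150. With 5 libraries a distance of this kind ranks shapes and says nothing of shared function.

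Pseudogenes lie within the span of 3 members: Gm13171 (43 counts over all libraries) on the strand opposite to Gnb1, Rps2-ps10 (5066 counts) opposite to Pde6a, and Gm5297 (280 counts) on the strand of Cnga1. The library kit does not mark strand. Only the spans of whole genes were compared, not their exons, so whether any reads were shared was not tested. Each pseudogene total is small beside that of the member.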

How the data were processed

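Retinal polyA RNA of 5 libraries was analysed, grouped by the treatment given in the sample labels. The authors trimmed reads with Trimmomatic 0.39 and quantified them with Salmon 1.10.1, per the labels, and deposited estimated counts per gene as whole numbers. The labels name GRCm38, and the paper gives Ensembl v91 for its meta-analysis. A normalized signal from DESeq2, deposited beside the counts, served for alternatives only. One FDM library had been left out by the authors for read duplication and is not analysed here. The second FDM library is numbered 2 in the labels but 3 in the column name, so its column was assigned to the FDM group, and its pairing rests on the paper's supplement.

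Genes with more than 10 estimated counts in at least 2 libraries (17432) were tested in edgeR 4.0.16 under R 4.3.3 with TMM factors and the quasi-likelihood test. The paper states no pairing term, so the fit had none, and the mouse as a block was an alternative. The threshold was an unadjusted p of 0.05, with Benjamini-Hochberg adjustment over all genes tested. Standard errors were derived from the fold change and its F statistic. DESeq2 1.42.0 and limma 3.58.1, on log2 of the normalized signal plus a pseudocount of 1 or 0.1, were further alternatives. The deviations of FDM 1 and Control 1 from their group means correlated at 0.258 across genes. Those of FDM 3 and Control 3 correlated at 0.125, and those of FDM 3 and Control 2, the pair by label number, at 0.155. With 2 FDM libraries their deviations mirror each other, with FDM 3 and Control 1 at -0.258, so these values are not separate. This check does not tell the 2 pairings of FDM 3 apart. No 2 libraries held the same counts (chi-square between any pair at least 11.95 times its degrees of freedom). The 5 eyes came from 3 mice, and the fit without a block treats the eyes of the same mouse as independent. With the mouse as block, the p-values rest on the differences within 2 mice. Each gene then has 1 residual degree of freedom, to which edgeR's test adds degrees of freedom estimated over all genes. Coordinates, transcript lengths and GC content are from GENCODE M21 on GRCm38, which held 33585 of the 33635 identifiers, and promoters from RefSeq. The scripts were tested on simulated counts. The members, the lists and the alternatives were chosen with earlier results of these data known. All 9 members were named, with every called gene of the other lists, a few fixed ones, and the 5 nearest profiles. One gene of these lists is not reported here.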

Additional observations from a re-analysis of the deposited data

How the results depend on the processing

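Without a mouse block, 0 of the 9 members were called under any of the alternatives, the 5 fits that leave out a library included. In these fits the members' log2 fold changes lay between -0.21 and 0.15, and most are so near 0 that their sign depended on the setting. With the mouse as replicate block 4 members, 6 of the other rod genes and 2 cone genes were called, with the authors' factors added 3, 6 and 1, and in DESeq2 with that block 4, 5 and 1 (273 over all genes). Both of these last fits, and the same-mouse differences on other scales, were chosen after seeing the data. Blocks numbered as in the sample labels called 0 members and 439 of all genes. Over all genes 281 were called, against 172 in DESeq2, 498 with every gene of at least 1 count, 500 and 493 in limma with pseudocounts of 1 and 0.1, 1261 with the mouse block and 1273 with the authors' factors added. Leaving out a library gave 146 (without Control 3) to 946 (without Control 1) calls over all genes, 170 without FDM 1, 535 without Control 2, 0 to 3 among the other rod genes and 0 to 1 among the cone genes. The unblocked DESeq2 fit called 1 cone gene. The causes were not tested.

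Signs turned as follows. With the mouse block Gnb1 was at -0.057, Pde6a at -0.041 and Cngb1 at -0.043. With the authors' factors added these were -0.0073, -0.082 and -0.082, and Cnga1 was at 0.0015, while DESeq2 with the block gave -0.049, -0.033 and -0.035. Blocks by label number put Gnat1 at 0.047 and Pde6g at 0.0028. The authors' factors without a block put Pde6a at -0.0030 and Cngb1 at -0.016, and limma put Cngb1 at -0.012 with either pseudocount. With each library left out in turn the ranges were -0.138 to 0.061 for Gnat1, -0.046 to 0.073 for Gnb1, -0.043 to 0.067 for Pde6a, -0.076 to 0.036 for Pde6b, -0.115 to 0.0092 for Pde6g and -0.045 to 0.147 for Cngb1. Gngt1 (-0.119 to -0.092), Cnga1 (-0.088 to -0.013) and Sag (-0.215 to -0.075) kept their sign. The group difference of the ratios ranged from -0.093 to 0.0092 for Gnat1 over Gnb1, -0.032 to 0.172 for Gnat1 over Gngt1, -0.062 to 0.041 for Pde6g over Pde6b and -0.195 to 0.020 for Cnga1 over Cngb1. On the authors' normalized counts the difference of Gngt1 between the eyes of mouse 1 was -0.066 in place of -0.151, a shift beyond the spread of the controls. The summed share differed by -0.0494 percentage points, and by -0.0467 and -0.0586 without the marker genes in the total or without Gnb1. The lowest estimated count of any member in a library was 33711.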
